A study of Homo sapiens with 6 samples.

Results

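Annexins are a family of cytosolic proteins that bind acidic phospholipids when calcium rises, and they were followed here through the transcripts of 10 members: ANXA1, ANXA2, ANXA3, ANXA4, ANXA5, ANXA6, ANXA7, ANXA9, ANXA10 and ANXA11. Every probe set whose single gene symbol in the platform annotation was one of these names was taken, which gave 16 probe sets of 22215 tested. ANXA1, ANXA3, ANXA5, ANXA6 and ANXA10 had 1 probe set each, ANXA4, ANXA7, ANXA9 and ANXA11 had 2 each, and ANXA2 had 3. A further probe set that the annotation assigns to ANXA2 together with another gene was not used.

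The labels give the source of all 6 samples as HSC2 cells, a line established from a human oral squamous carcinoma, grown in serum-containing medium. The labels describe 3 of the samples as stable transfectants of a full-length wild-type MALT1 cDNA and 3 as stable transfectants of the empty vector, called mock. MALT1, a caspase-like protease, relays signals from CARD scaffolds and BCL10 to NF-kappaB, and the comparison was set up to find genes that respond to it. Nothing in the labels tells whether replicates were separate cultures or clones. The p-values therefore reflect no more than the scatter among these 6 arrays, possibly technical in origin, and 3 arrays per group limit the precision.

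The annexin core is built of repeated domains that carry the calcium sites, and each member has its own N-terminal tail, through which several members bind S100 proteins. Through these contacts annexins organise membrane domains, vesicle traffic and the repair of torn plasma membrane. In stratified epithelia such as oral mucosa, ANXA1 and ANXA2 are among the abundant ones.

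The labels were checked first. The MALT1 transcript was lower on the arrays labelled MALT1 in each of its 3 probe sets, with log2 differences of −1.08, −0.47 and −0.28, of which the first 2 passed, and without overlap between the groups. A rise to match the label was not seen, but whether these probe sets read the transfected cDNA was not checked. Groups are therefore called by their labels throughout, and every direction below is arrays labelled MALT1 against arrays labelled mock. Of 8 markers of luminal and simple epithelium, all 8 were higher there, with a summed signal of 74174 to 82620 on the arrays labelled MALT1 against 8574 to 9309. The simple-epithelial keratin KRT19 read 12414 ± 567 (mean ± SD, n = 3) on the arrays labelled MALT1 and was dim on all mock arrays, as was the estrogen-regulated TFF1, at 15491 ± 264. The estrogen receptor ESR1 read 1765 ± 45.0 against 115 ± 4.65. Of 5 measured markers of squamous and basal epithelium, 4 were lower and KRT16 did not pass, with summed signals of 4736 to 4762 against 18908 to 21562. The fibroblast, endothelium and leukocyte marker lists each summed to at most 244 on any array, with VWF, CDH5, KDR and PTPRC dim everywhere. A signal is called dim where it does not exceed 17.6, the brightest reading of the Bacillus trp controls. LUM passed as lower and CD14 as higher, but both lay near or below that level on every array, at no more than 21.2 and 27.1. These markers, beside MALT1 probe sets that did not rise, put in doubt whether the arrays labelled MALT1 hold the labelled cells. Each fold below therefore compares the 2 sets of arrays as labelled, in which an effect of MALT1 and a difference in cell identity cannot be told apart. The part of the marker shifts in the annexin results was not tested.

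On the arrays labelled MALT1, falls outnumbered rises among the annexin probe sets. Of the 16 probe sets, 8 were lower, 3 were higher and 5 did not pass an adjusted p of 0.05 (limma with Benjamini-Hochberg adjustment over all 22215 probe sets). Over the whole array 35.6% of probe sets were called, 17.0% lower and 18.6% higher. By gene, ANXA1, ANXA2, ANXA3, ANXA5 and ANXA10 were lower in all their probe sets, ANXA6 and ANXA9 were higher in all of theirs, ANXA4 and ANXA7 passed in none, and ANXA11 was lower in 1 of 2. The groups did not overlap in 15 of the 16, against 49.7% of all probe sets. Signal exceeded the dim level on all 6 arrays in 14 of the 16, against 57.5% of all probe sets. The 3 ANXA2 probe sets also read nearly alike. The part of brightness in these counts was not tested. In bulk RNA of a culture, fewer cells with a transcript and less transcript per cell cannot be told apart. The median log2 difference was −0.48 over the annexin probe sets and 0.08 over all probe sets. The count of lower probe sets went from 8 to 5 without MALT1 replicate 2 or without mock replicate 3, through the loss of calls in ANXA2 and ANXA11.

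**Figure D1:**
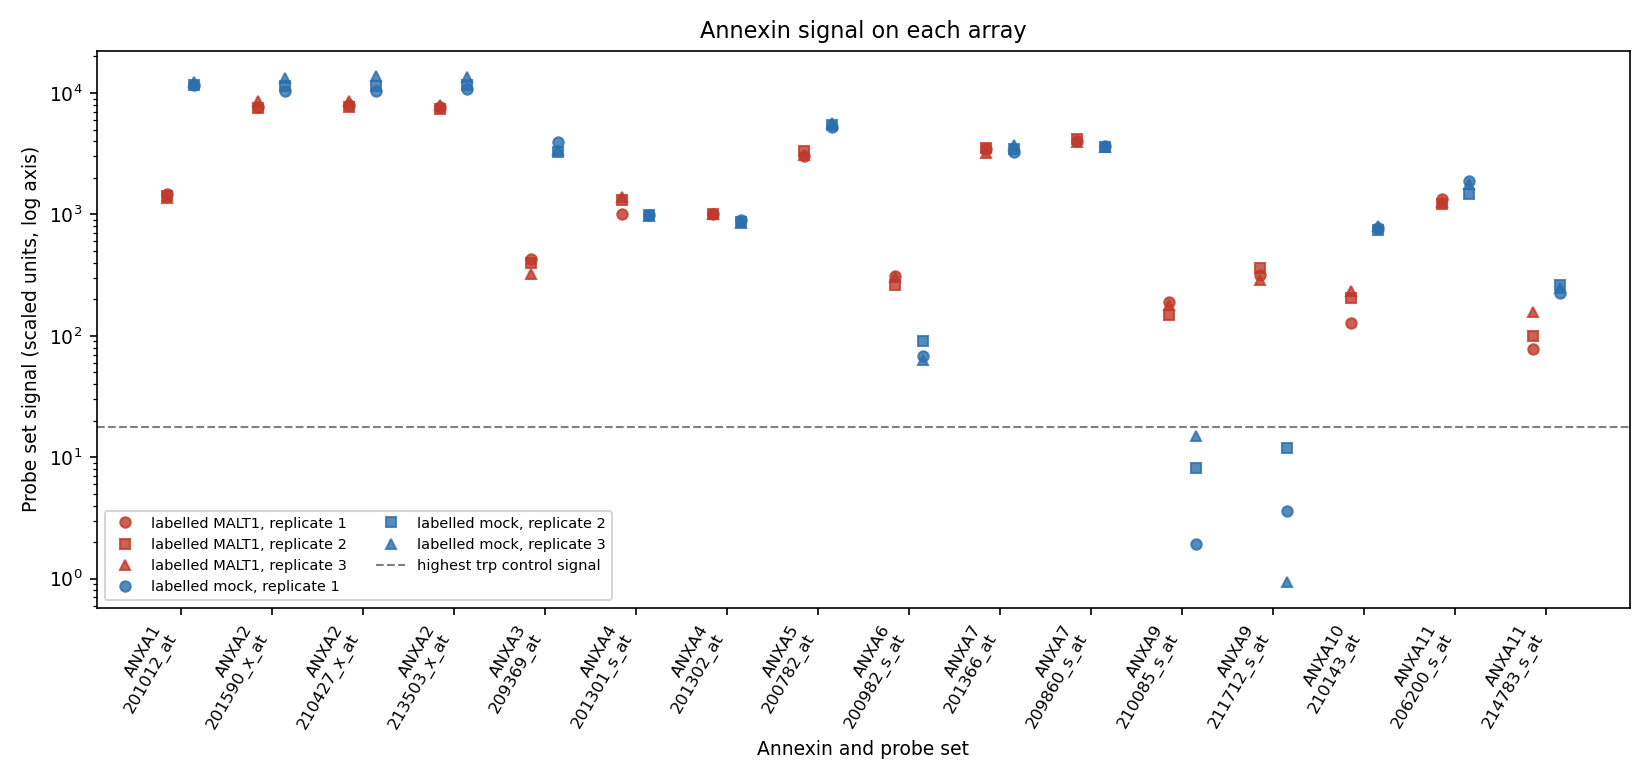
Signal of the 16 annexin probe sets (vertical log axis, scaled units) on each of the 6 arrays, with 1 symbol shape per replicate, red for arrays labelled MALT1 and blue for arrays labelled mock; the dashed line is the trp control level of 17.6. The blue symbols lie far above the red ones for ANXA1, ANXA3 and ANXA10, and far below them for ANXA6 and ANXA9.

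ANXA1, ANXA3 and ANXA10 fell the most, each by more than 4-fold. ANXA1, the glucocorticoid-regulated annexin that restrains phospholipase A2 and inflammation, read 1463, 1406 and 1372 on the arrays labelled MALT1 and 11673, 11707 and 12281 on those labelled mock. All 3 mock arrays were far above the others, and the arrays within each group lay close together. ANXA1 thus fell from 11887 ± 342 to 1414 ± 46.2 (mean ± SD, n = 3 each), 8.40-fold in the fit (log2 fold change −3.07 ± 0.08 SE, limma adjusted p = 5.3e-05).

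ANXA3, an annexin abundant in neutrophils and also made by epithelial tumours, read 426, 399 and 325 on the arrays labelled MALT1. On the arrays labelled mock it read 3962, 3271 and 3408, so the groups stood well apart. The fall was 9.26-fold (log2 fold change −3.21 ± 0.15 SE, limma adjusted p = 0.00013). ANXA10, an annexin of gastric epithelium with poorly conserved calcium sites, read 128, 205 and 236 against 777, 748 and 798. Its arrays labelled MALT1 were spread, with an SD of 29.2% of their mean against 3.24% on the mock arrays, but none came near the mock range. The fall was 4.20-fold (log2 fold change −2.07 ± 0.24 SE, limma adjusted p = 0.0024). These 3 genes passed under all 13 alternative settings.

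The reference promoters of these members are shown because the genes that fell the most differ in base composition at their listed start sites. Each window holds 250 bases before and 50 after a transcription start in RefSeq (GRCh38.p14), 5′ to 3′ on the gene's strand. All 10 annexins matched, with 14 windows. The motifs searched on both strands were TATAAA (the core promoter box), TGANTCA (AP-1 site), GGGCGG (GC box) and the CCAAT box, and capitals mark their matches. ANXA1 lies at chr9:73151615-73151914 on the plus strand, ANXA10 at chr4:168092287-168092586 on the plus strand, ANXA3 at chr4:78551520-78551819 on the plus strand and ANXA2 at chr15:60397937-60398236 on the minus strand.
ANXA1: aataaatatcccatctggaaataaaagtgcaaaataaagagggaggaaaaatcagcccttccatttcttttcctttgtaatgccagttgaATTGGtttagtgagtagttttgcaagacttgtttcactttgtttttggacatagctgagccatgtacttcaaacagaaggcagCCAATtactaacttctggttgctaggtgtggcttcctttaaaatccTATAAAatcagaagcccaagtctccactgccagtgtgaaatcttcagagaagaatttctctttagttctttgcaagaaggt
ANXA10: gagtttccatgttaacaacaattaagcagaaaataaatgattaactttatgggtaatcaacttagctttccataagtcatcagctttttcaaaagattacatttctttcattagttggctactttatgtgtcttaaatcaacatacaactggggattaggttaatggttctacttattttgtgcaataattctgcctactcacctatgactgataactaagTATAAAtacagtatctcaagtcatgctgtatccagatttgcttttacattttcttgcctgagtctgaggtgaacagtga
ANXA3: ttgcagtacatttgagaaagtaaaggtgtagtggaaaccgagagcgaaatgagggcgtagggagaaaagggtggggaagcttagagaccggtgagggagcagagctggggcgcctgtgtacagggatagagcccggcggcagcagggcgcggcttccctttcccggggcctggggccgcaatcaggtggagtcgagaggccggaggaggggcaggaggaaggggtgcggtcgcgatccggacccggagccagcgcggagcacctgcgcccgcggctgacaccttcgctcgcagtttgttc
ANXA2: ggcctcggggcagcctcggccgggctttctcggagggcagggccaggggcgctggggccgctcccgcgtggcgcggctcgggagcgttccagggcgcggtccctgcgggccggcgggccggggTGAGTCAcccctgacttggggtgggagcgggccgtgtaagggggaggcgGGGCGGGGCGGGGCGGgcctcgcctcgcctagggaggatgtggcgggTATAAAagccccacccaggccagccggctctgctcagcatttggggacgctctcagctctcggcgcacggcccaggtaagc

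The ANXA1 and ANXA10 windows were poor in G and C, at 37.7% and 32.7%, and held 0 CpG dinucleotides each, as did 3.96% of the 35116 windows in the table. Both had a TATAAA match, beginning 31 and 29 bases before the start. The ANXA3 window, of the member with the steepest fall, was of the other kind: 64.7% G and C, 25 CpG dinucleotides and no match to any of the 4 motifs. ANXA2 combined a TATAAA match 31 bases before the start with 3 GC boxes that overlap at their ends, an AP-1 match and 32 CpG dinucleotides. Among all windows, the median held 14 CpG, 11.5% had a TATAAA match, 7.71% an AP-1 match, 45.0% a GC box and 34.6% a CCAAT box. Of the genes that rose, ANXA9 had 1 window, with 5 CpG dinucleotides, 59.0% G and C and none of the 4 motifs. ANXA6 had 2 windows, one with 10 CpG dinucleotides and none of the motifs, the other with 25, a GC box and a CCAAT box. A match here describes letters in the reference, not binding, and the array does not say which start site was used.

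ANXA2 and ANXA5, bright on every array, fell by less than 2-fold. ANXA2 forms a complex with S100A10 at the plasma membrane and binds plasminogen. Its probe set 213503_x_at read 7649, 7324 and 7937 on the arrays labelled MALT1 and 10745, 11613 and 13566 on those labelled mock. The groups did not overlap, but mock replicate 3 lay well above the other mock arrays. The fall was 1.56-fold (log2 fold change −0.64 ± 0.12 SE, limma adjusted p = 0.0109), and it passed under all 13 alternatives. The probe sets 201590_x_at and 210427_x_at gave log2 fold changes of −0.56 ± 0.13 and −0.55 ± 0.14 (SE; limma adjusted p = 0.024 and 0.031). Their calls were lost when single arrays were left out, with limma adjusted p up to 0.0782 and 0.0946. Both calls went without MALT1 replicate 1 or 2 and without mock replicate 2 or 3, and that of 210427_x_at also without MALT1 replicate 3.

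All 3 ANXA2 probe sets end in x_at, the suffix for probes that can bind several transcripts, and ANXA2 has processed pseudogenes of nearly the same sequence. The probe set named for the pseudogene ANXA2P2 read 2272, 2261 and 1868 on the arrays labelled MALT1 against 8312, 8733 and 9524. It fell 4.16-fold (log2 fold change −2.06 ± 0.12 SE, limma adjusted p = 0.00026), a larger change than in any ANXA2 probe set. Within each array, the log2 ratio of ANXA2P2 to ANXA2 probe set 213503_x_at ranged from −2.09 to −1.70 in the first group and from −0.51 to −0.37 in the mock group, a mean difference of −1.41. The exact two-sided permutation test gave p = 0.1, the smallest that 3 against 3 arrays allow (0.167 adjusted over 10 such ratios). Of the other pseudogene probe sets, ANXA2P1 fell by 1.37 on the log2 scale and ANXA2P3 did not pass. The pseudogenes were brought in after the values were seen. How the ANXA2 messenger and its pseudogenes share signal in these probe sets was not tested, so the size of the ANXA2 fall is not settled for the gene alone.

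**Figure D2:**
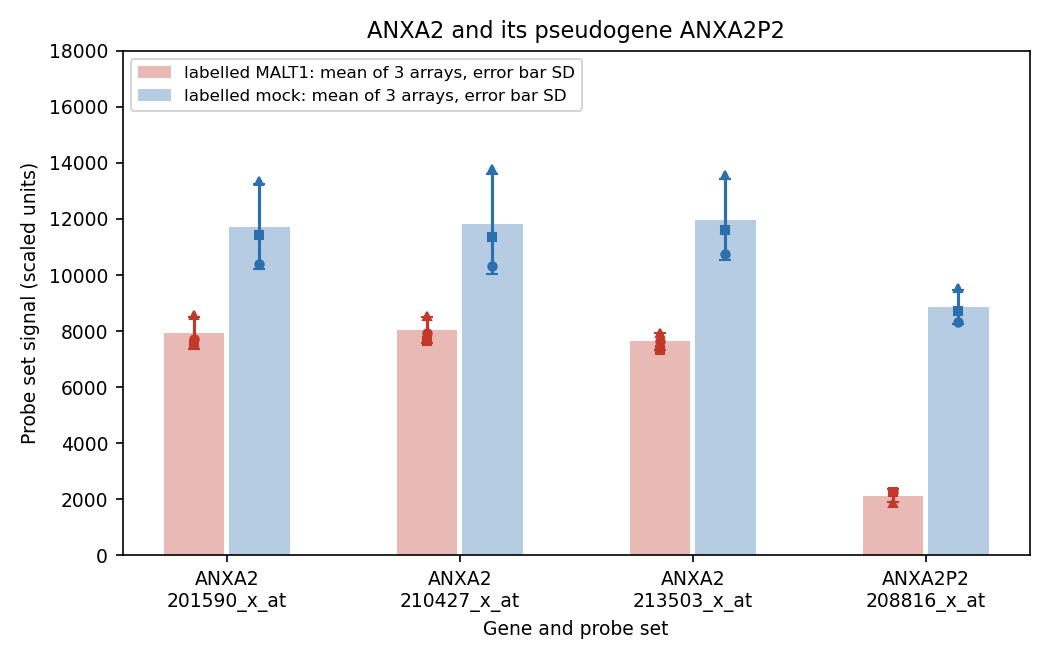
Signal (vertical axis from 0, scaled units) of the 3 ANXA2 probe sets and the ANXA2P2 probe set; bars are means of 3 arrays, error bars are SD, and symbols are single arrays. The blue bars (labelled mock) exceed the red bars (labelled MALT1) in all 4, by the widest ratio for ANXA2P2.

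ANXA5, whose protein binds phosphatidylserine so tightly that it is used to stain dying cells, read 3012, 3355 and 3108 on the arrays labelled MALT1. On the arrays labelled mock it read 5274, 5425 and 5619, without overlap. The fall was 1.72-fold (log2 fold change −0.79 ± 0.09 SE, limma adjusted p = 0.002).

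ANXA6 and ANXA9 moved the other way. ANXA6, the only annexin with a doubled core and a scaffold that acts on cholesterol transport and RAS signalling, read 314, 261 and 307 on the arrays labelled MALT1 and 68.0, 91.3 and 63.3 on those labelled mock. Every array labelled MALT1 was well above every mock array, and all were above the trp control level. The rise was 3.96-fold (log2 fold change 1.98 ± 0.17 SE, limma adjusted p = 0.00091).

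ANXA9, an annexin that has lost the usual calcium sites, was dim on all 3 arrays labelled mock in both of its probe sets, so its rise has only a bound. Probe set 211712_s_at read 314, 362 and 291 on the arrays labelled MALT1 against 3.59, 12.0 and 0.933. Probe set 210085_s_at read 189, 148 and 178 against 1.95, 8.11 and 14.9. The mock values lay at or below the level of the trp controls and have no order among themselves. ANXA9 was at least 18.2-fold higher in the first and at least 9.68-fold higher in the second (limma adjusted p = 0.0023 and 0.0045), dividing the geometric mean on the bright arrays by 17.6. ANXA5, ANXA6 and both ANXA9 probe sets passed under all 13 alternatives. ANXA6 and ANXA9 were measured only on s_at probe sets, which can bind several transcripts.

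**Figure D3:**
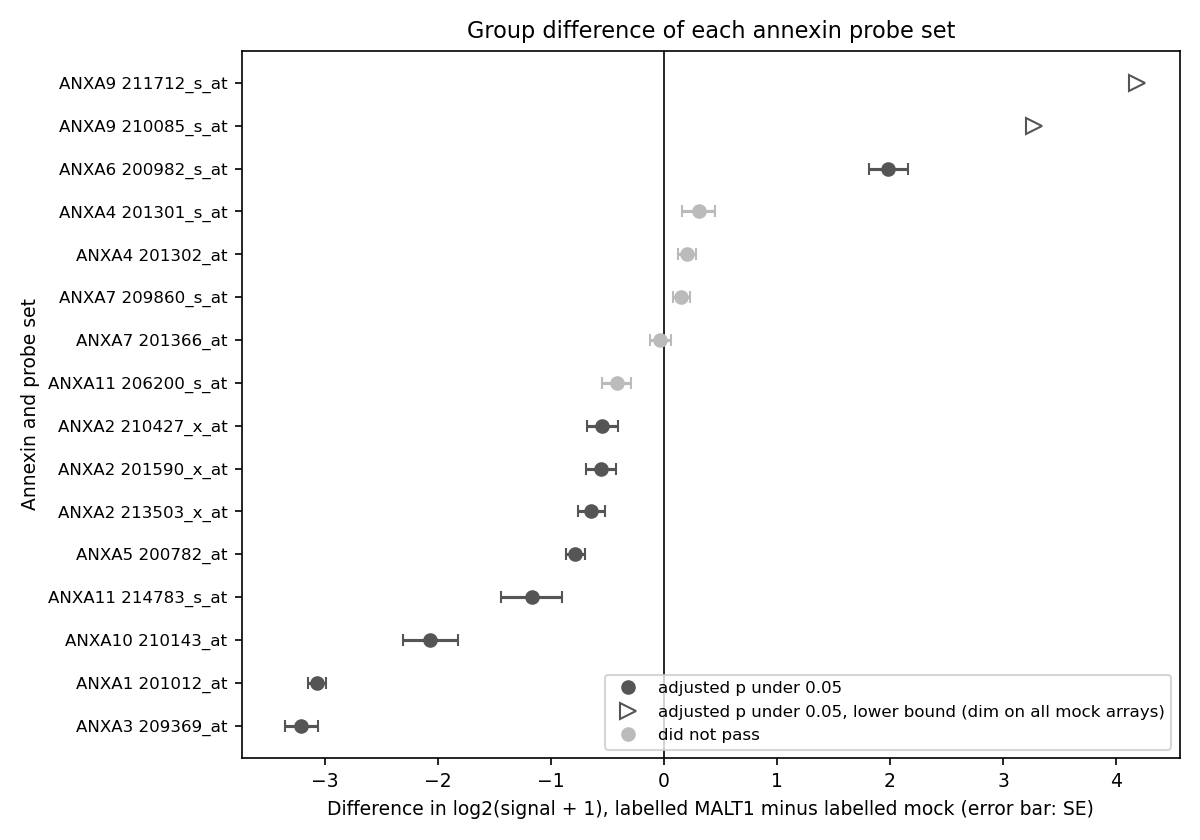
Difference in log2(signal + 1) between arrays labelled MALT1 and arrays labelled mock for each annexin probe set, ordered by fitted size; error bars are SE, dark circles passed an adjusted p of 0.05, pale circles did not, and open triangles are lower bounds. ANXA3 and ANXA1 lie near −3 and ANXA6 near 2, while ANXA4 and ANXA7 lie near 0.

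ANXA4, ANXA7 and ANXA11 differed little or unevenly between their probe sets. ANXA4, an annexin of the apical membrane in secretory epithelia, read 1000.4, 1013 and 1003 on the arrays labelled MALT1 in probe set 201302_at, against 902, 871 and 843. These groups did not overlap, yet the difference missed the threshold (log2 difference 0.21 ± 0.08 SE, limma adjusted p = 0.104). Its other probe set gave 0.31 ± 0.14 (SE; limma adjusted p = 0.175). Under the 13 alternatives 201302_at passed in 3 and 201301_s_at in 2, with a positive difference in each.

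ANXA7, the synexin that joins secretory granules and binds sorcin, read 3456, 3510.0 and 3196 against 3256, 3438 and 3712 in probe set 201366_at. Here the groups overlapped, the only annexin probe set in which they did. The log2 difference was −0.03 ± 0.10 (SE; limma adjusted p = 0.83), and in probe set 209860_s_at it was 0.15 ± 0.08 (SE; limma adjusted p = 0.197). Neither passed under any of the 13 alternatives, and the first changed sign without MALT1 replicate 3 or mock replicate 3.

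ANXA11, which tethers RNA granules to lysosomes and binds the calcium sensor PDCD6, was called in 1 of its 2 probe sets. Probe set 214783_s_at read 78.3, 101 and 157 on the arrays labelled MALT1 and 223, 260 and 248 on those labelled mock. The arrays labelled MALT1 were spread, with an SD of 36.2% of their mean, but stayed below the mock arrays. The log2 fold change was −1.17 ± 0.27 (SE; limma adjusted p = 0.0238), and the call was lost without MALT1 replicate 2 or any one mock array, with limma adjusted p up to 0.0787. Probe set 206200_s_at gave a log2 difference of −0.42 ± 0.13 (SE; limma adjusted p = 0.0555) and passed in 5 of the 13 alternatives. The log2 ratio of 206200_s_at to 214783_s_at ranged from 3.01 to 4.09 in the first group and from 2.49 to 3.09 in the mock group, so that the ranges overlapped (exact two-sided permutation p = 0.2, or 0.286 adjusted over 10 ratios).

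The genes whose pattern over the 6 arrays was closest to an annexin were taken by the mean absolute difference of centred log2 values, among 11962 other genes. Closest to ANXA3 were AGPS (0.06), CDC42EP3 (0.07) and the desmosomal cadherin DSC3 (0.08), with log2 fold changes of −3.08, −3.20 and −3.27. Closest to ANXA6 were RNFT2 (0.07), PLXND1 (0.08) and HAGH (0.09), with log2 fold changes of 1.89, 1.86 and 1.95. With 2 groups of 3 arrays this measure mainly reads the size of the group difference.

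The binding partners of annexins went both ways. Of 11 measured partners, each on its brightest probe set, 4 fell, 2 rose and 5 did not pass (median log2 difference −0.16). Over all genes taken this way 40.4% were called, 21.1% higher and 19.2% lower. S100A11, the partner of the ANXA1 tail, read 1511, 1536 and 1424 against 2980, 3065 and 3087, a fall by 1.03 on the log2 scale. S100A10, the partner of the ANXA2 tail, read 5961, 5836 and 6479 against 8391, 8609 and 9395, a log2 fold change of −0.53 ± 0.09 SE beside −0.64 to −0.55 for the ANXA2 probe sets. It was named after its values were seen. The scaffold AHNAK, which binds the complex of ANXA2 and S100A10, fell by 1.55 and S100A6 fell by 2.55 on the log2 scale. S100P rose, from 88.7 ± 19.6 to 1028 ± 111 (log2 fold change 3.54 ± 0.20 SE). PDCD6, the partner of ANXA11, read 3592, 3653 and 3363 against 2246, 2419 and 2530, a log2 fold change of 0.56 ± 0.09 SE, and it too was named after its values were seen. Sorcin (SRI), the partner of ANXA7, differed by −0.06 ± 0.10 (SE), did not pass and was likewise named after its values were seen.

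Around ANXA1, 2 of the 3 formyl peptide receptors it signals through were dim on all arrays, while PLA2G4A, PTGS1 and PTGS2 fell. Of 9 measured genes of this pathway, 4 fell, 2 rose and 3 did not pass (median log2 difference 0.19, or 0 with dim genes at their bound). Over all genes on their brightest probe set 19.2% were lower and 21.1% higher. The dim receptors were FPR2 and FPR3, and FPR1 was dim on all mock arrays and did not pass. Cytosolic phospholipase A2 (PLA2G4A), which ANXA1 is known to inhibit, read 26.6, 32.9 and 14.3 against 132, 116 and 138, a fall by 2.41 on the log2 scale. The cyclooxygenases PTGS1 and PTGS2 fell by 4.50 and 1.72, and the glucocorticoid receptor NR3C1 by 0.40, on the log2 scale. The 2 that rose were the glucocorticoid-induced genes TSC22D3 and DUSP1 (log2 fold changes 0.48 and 0.71), named after their values were seen. The 6 calls became 3 under the replicate block and without MALT1 replicate 2 or any one mock array.

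Of 5 measured genes of plasminogen activation, the process ANXA2 supports at the cell surface, 4 fell and 0 rose (median log2 difference −0.67). The shares over all genes on their brightest probe set were 19.2% lower and 21.1% higher. PLG itself was dim everywhere. The urokinase PLAU and its receptor PLAUR fell by 2.20 and 1.24 on the log2 scale, PLAT by 0.67, and ENO1, a plasminogen-binding glycolytic enzyme, by 0.36. The 4 calls became 2 without any one array labelled MALT1, without mock replicate 2 or 3, and under the replicate block.

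Among the genes of plasma membrane repair, 6 of 11 measured fell, 1 rose and 4 did not pass (median log2 difference −0.82). Across all genes, each on its brightest probe set, 19.2% fell and 21.1% rose. CAPN2, a calpain that acts in the repair of torn membrane, read 1349, 1410.1 and 1433 against 5559, 5818 and 5862, a fall by 2.04 on the log2 scale. The ferlin MYOF, the caveolar coat protein CAV1 and the caveolar ATPase EHD2 fell by 1.47, 1.86 and 2.05 on the log2 scale. The 1 that rose was VPS4A, the ATPase that disassembles ESCRT filaments (log2 fold change 0.90 ± 0.08 SE), also named after its values were seen.

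Proteins with C2 domains, a phospholipid-binding module that often depends on calcium, gave 5 higher, 3 lower and 5 not passing of 13 measured. For all genes on their brightest probe set, 21.1% were higher and 19.2% lower. The median log2 difference of the list was the value of PRKCB (0.25 ± 1.02 SE), which did not pass. PRKCB read 2.82 to 25.8, around the dim level, and was named after its values were seen. The copines split, with CPNE1 lower by 1.63 on the log2 scale, from 782 ± 33.0 to 253 ± 33.0, and CPNE3 higher (log2 fold change 1.13). SYTL2, a vesicle-docking protein, was dim on all mock arrays and at least 8.86-fold higher. The kinase PRKCA fell from 143 ± 6.90 to 71.5 ± 8.40. PLA2G4A is in this list as well as in that of ANXA1.

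**Figure D4:**
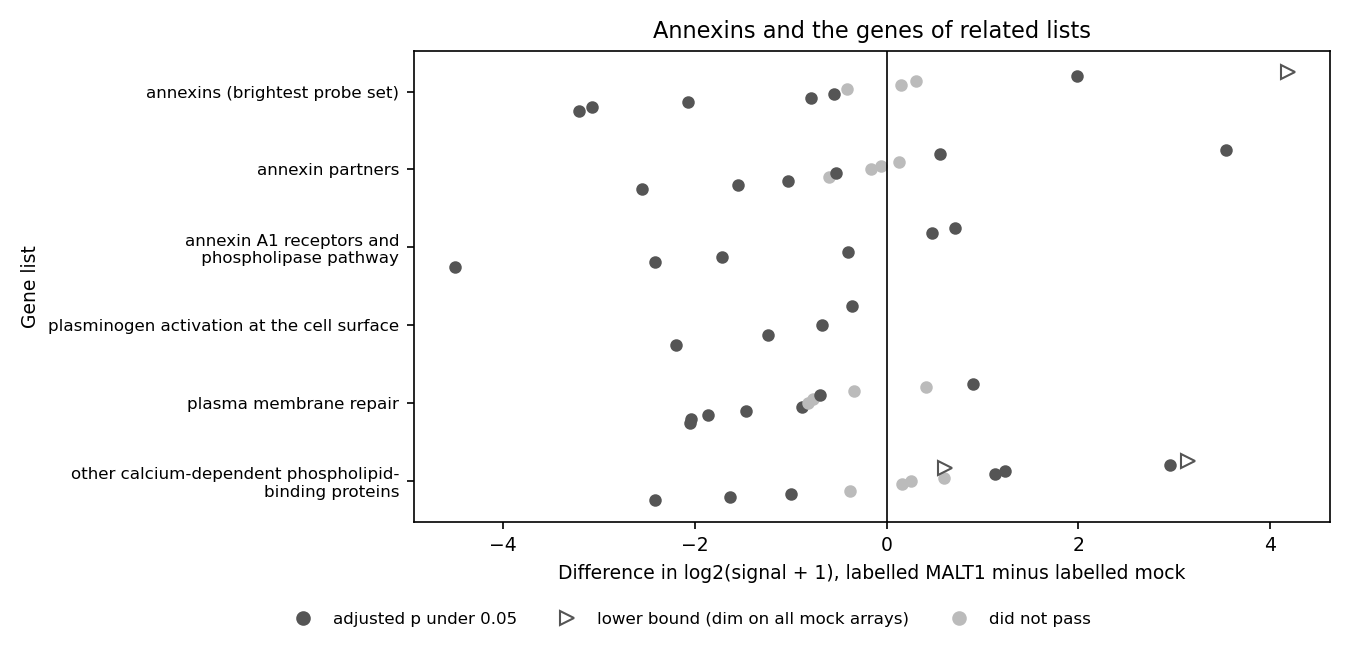
Difference in log2(signal + 1) between arrays labelled MALT1 and arrays labelled mock for the brightest probe set of each gene, by list; dark circles passed an adjusted p of 0.05, pale circles did not, open triangles are lower bounds, and genes without a measurable fold are left out. The 4 plotted plasminogen genes all lie below 0, while the other lists have genes on both sides.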

How the data were processed

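The deposited values were linear intensity values, 1 per probe set, already summarised over probes by the authors. The software and its settings are not given in the sources used here. In the values themselves, each array had a mean of 500.1 to 500.2 after trimming 2% at each end, so bright and dim arrays were brought to 1 scale before deposit. RNA was extracted with Trizol and labelled with biotin by the array maker's protocol, per the labels' protocols.

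Signals were tested as log2(signal + 1) with limma 3.58.1 (lmFit, eBayes) in R 4.3.3, on all 6 arrays with group as the only term and no filter on signal, after 62 control probe sets were left out. Two-sided p-values were adjusted over 22215 probe sets. Symbols came from the platform annotation: 19064 probe sets had 1 symbol (19052 matched by gene ID to RefSeq, GRCh38.p14), 1043 several and 2108 none. In the gene lists, a gene took its brightest probe set. Up to 4 called members with the smallest adjusted p were named per list, with all 10 annexins, MALT1, and the 3 genes most like the annexin that rose or fell most with measured signal in both groups; genes named outside this rule are marked as such, or are the few left by a count. The members and lists were chosen with earlier results of these data known. Same-numbered arrays did not deviate together (correlations −0.029 to 0.012), so no pairing was used. The level for dim signals, 17.6, came from MALT1 replicate 3, and the highest trp signals elsewhere were 6.13 to 14.7. That array also had the highest median signal, 79.0 against 64.1 to 70.6 on the others. The ratio of 3′ to 5′ control probe sets for ACTB ranged from 3.59 to 4.46, highest on the same array. Alternatives were another added value or none, median centring, quantile normalization, a filter on dim probe sets, an intensity trend, a replicate block, and leaving out each array.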

Additional observations from a re-analysis of the deposited data

How the results depend on the processing

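The 13 alternatives gave 208 values for the 16 annexin probe sets. Of these, 182 kept their direction and side of the threshold, 14 lost the call, 10 gained one and 2 changed sign. The 8 probe sets of ANXA1, ANXA3, ANXA5, ANXA6, ANXA9, ANXA10 and ANXA2 (213503_x_at) passed under each of the 13. The 2 sign changes were in ANXA7 probe set 201366_at, at 0.008 without MALT1 replicate 3 and 0.017 without mock replicate 3, both near 0, and it lay between −0.078 and 0.017 over the fits with 1 array left out. The 11 annexin probe sets called became 8 to 10 when 1 array was left out. They became 7 of 10 with only the brightest probe set of each annexin, against 40.4% of all genes taken this way. The brightest ANXA11 probe set did not pass. Leaving out s_at and x_at probe sets gave 4 of 6, with no probe set left for ANXA2, ANXA6, ANXA9 and ANXA11. No share over the whole array was taken for that set. Fewer probe sets enter the 7 of 10 and the 4 of 6 than the main count. With the intensity trend the count higher rose from 3 to 5, through ANXA4. With the replicate number as a block, 10 annexin probe sets were called, with ANXA2 210427_x_at lost (limma adjusted p = 0.0569). Over all probe sets 7917 were called, and 6165 to 7330 with 1 array left out. Of the 48 genes in the pathway lists 30 were called, and 23 to 27 with 1 array left out. The share called over all genes, each on its brightest probe set, was 40.4% in the main fit. Median centring moved the median log2 difference over all probe sets from 0.08 to −0.05, and the annexin calls there were 9 lower and 3 higher. Without MALT1 replicate 3 that median was −0.002. The alternative with nothing added before log2 was chosen after seeing the data and called 11. The files hold no detection calls, so signals near 17.6 limit ANXA9 most.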

Other observations

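The next measured gene on either side of each annexin in RefSeq gene order was looked up, a choice made after the values were seen. Of these 20 neighbours, 5 were higher, 6 lower and the rest did not pass. Among all genes 40.4% were called, 21.1% higher and 19.2% lower. Of the 14 neighbours of annexins called on their brightest probe set, 6 were called in the direction of the annexin, 2 in the other direction and 6 did not pass. Both neighbours of ANXA9 rose: CERS2, a ceramide synthase, read 1891 ± 3.55 on the arrays labelled MALT1 against 969 ± 31.6 (mean ± SD, n = 3 each), and MINDY1 179 ± 17.0 against 63.8 ± 24.2. Both neighbours of ANXA6 fell while ANXA6 rose: TNIP1, which binds the NF-kappaB inhibitor TNFAIP3, by 0.65 and CCDC69 by 1.23 on the log2 scale. Beside ANXA10, the interferon-induced helicase DDX60 fell by 2.69 on the log2 scale and SPOCK3 was dim on all arrays. Both neighbours of ANXA1, ALDH1A1 and RORB, were dim on all arrays.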
